A study of Mus musculus with 6 samples.

Results

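Txnip, the alpha-arrestin genes Arrdc1, Arrdc2, Arrdc3 and Arrdc4, and Mlxip, which encodes the glucose-sensing factor MondoA, were followed across single embryonic mouse ventricles with and without a deletion of Vhl. These 6 genes are members of 1 pathway by name, out of 13843 genes in the table, and all 6 had values above its floor. The set was chosen by a comparison of the same libraries in which Arrdc4 was low in knockouts 1 and 2. Differences of the 6 genes between these knockouts and the controls are therefore given as a description. Where calls among the 6 are counted, they stand beside the share of all genes called and support nothing.

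The knockout group held ventricles of embryos labelled Vhl(flox/flox) / Nkx2.5(Cre/+), and the control group ventricles of embryos labelled Vhl(flox/flox) / Nkx2.5(+/+), with 3 embryos in each. All embryos were E12.5 on a C57BL/6 background, and both groups carried the floxed Vhl alleles. Cre came from 1 Nkx2.5 allele, which is active in heart muscle progenitors, so cells of other descent keep Vhl and the groups differ by the Cre allele as well as by Vhl. Labels gave litter 1 for control 1 and knockout 1, litter 2 for control 2 and knockout 2, litter 3 for control 3 and litter 4 for knockout 3, whereas the design text counts 3 litters.

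The values were polyadenylated-RNA reads per gene scaled by 1 factor per library (scaled CPM), over 9067805 to 12592902 reads per library. Vhl had values of 11.1 and 10.3 in knockouts 1 and 2, against 33.7, 36.3 and 38.6 in the controls, but 34.5 in the library labelled knockout 3, which goes against its label. That library is left out of the main comparison, and its values are given apart for the members and for some other genes. The value of Nkx2-5, the gene that drives Cre, was 51.6 and 66.7 in knockouts 1 and 2, against 75.7, 79.2 and 68.6 in the controls. In the library labelled knockout 3 it was 80.3. As each library is 1 embryo, p-values measure the spread between single embryos. Of the marker genes fixed for 7 cell types, 42 were measured and 0 of them stood at 0 in any library. The cardiomyocyte list summed to 30200 and 27619 in knockouts 1 and 2 against 26628 to 32453 in the controls. Myh7 was the largest part of this sum in each library. Markers of skeletal muscle and liver, and the macrophage gene Ptprc, were not analysed here. In a whole ventricle, fewer cells of a type and less RNA per cell cannot be told apart.

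Cells that take up glucose turn it into glucose 6-phosphate, which moves MondoA, together with its partner Mlx, to the nucleus. There the pair binds paired E-boxes called carbohydrate response elements and induces Txnip and Arrdc4. Txnip binds and inhibits thioredoxin, and it draws glucose transporters from the cell surface, so that the loop limits further glucose uptake. Alpha-arrestins are adaptors that link membrane proteins to ubiquitin ligases of the NEDD4 family. Vhl marks hypoxia-inducible factors (HIF) for degradation, and these factors raise glucose transport and glycolysis.

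Promoter sequences are shown because the element through which MondoA acts is a matter of a few letters. The RefSeq table for GRCm38.p6 held 8 start windows for the 6 genes, 3 of them for Arrdc3, and in each the 250 bases before the transcription start were searched on both strands. The consensus element has 2 copies of CACGTG with 5 free bases between them, which makes 12 fixed letters. The best match in each gene follows, with the letters at the fixed positions in capitals, for Arrdc3 from its most upstream start.
Txnip: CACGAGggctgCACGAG
Arrdc4: AAGGTCctgtgCACGTG
Arrdc3: CAAGAGccgggCGCGCG
Arrdc1: CCTGTTgtgaaCAGGTG
Arrdc2: CACGCCcttcaCACGCT
Mlxip: GGCCTGgctttCTCGTC
The Txnip site matched 10 of the 12 letters, as did at least 1 site in 0.78% of 32841 promoters in the table. Arrdc4 matched 9, which 7.02% of promoters reached. Arrdc1, Arrdc2 and each window of Arrdc3 matched 8, which 37.7% reached, and Mlxip matched 7, which 90.4% reached. A stricter search, for 2 copies of CACGNG with 5 bases between them, found a match in Txnip and in 0.0457% of promoters (15 of 32841), and in none of the other members' windows.

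The promoters of Txnip and Arrdc4 are printed whole, since these are the members known as targets of MondoA. Each run is written 5′ to 3′ on the gene's strand, with the fixed positions of its best pair in capitals. The Txnip window is chr3:96557707-96557956 on the plus strand, and the Arrdc4 window is chr7:68749239-68749488 on the minus strand.
Txnip: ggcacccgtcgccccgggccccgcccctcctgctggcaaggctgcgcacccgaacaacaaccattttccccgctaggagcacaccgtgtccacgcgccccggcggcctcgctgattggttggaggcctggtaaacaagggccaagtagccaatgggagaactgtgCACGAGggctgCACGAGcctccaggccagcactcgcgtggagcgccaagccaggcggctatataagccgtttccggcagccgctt
Arrdc4: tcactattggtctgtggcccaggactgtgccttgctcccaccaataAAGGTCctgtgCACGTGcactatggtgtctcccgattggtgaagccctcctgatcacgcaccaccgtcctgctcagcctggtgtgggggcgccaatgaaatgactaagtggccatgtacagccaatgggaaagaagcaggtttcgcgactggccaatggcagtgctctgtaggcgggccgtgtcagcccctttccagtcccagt
The Txnip pair lies 85 to 69 bases before the start, and the Arrdc4 pair lies 204 to 188 bases before it. The downstream copy in Arrdc4 is a full E-box, CACGTG, which this window holds once, the other members' windows lack, and 6.02% of all promoters hold.

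The HIF core was searched as ACGTG and as GCGTG. The letters ACGTG occur within the E-box of Arrdc4 on both strands, so these matches are the same letters as the E-box, and in 1 window of Arrdc3, against 16.6% of all promoters. GCGTG was found in at least 1 window of every member and in 28.2% of all promoters. The members' windows held 58.0% to 76.0% G and C, against a median of 52.4% over all promoters. Shares over all promoters were not matched for this content. CCAAT, the box bound by the factor NF-Y, was present 6 times in the Arrdc4 window, a count that 0.0579% of promoters reached. It was present 3 times in the Arrdc2 window and 2 times each in those of Txnip and Mlxip. Each Arrdc3 window held it at most 1 time, and that of Arrdc1 0 times, while 33.9% of promoters held it at least once. GTAAACA, a core bound by FOXO factors, occurred in Txnip, 121 to 115 bases before its start, in no window of the other members and in 3.17% of all promoters. These matches describe letters in a window and do not show binding.

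**Figure D1:**
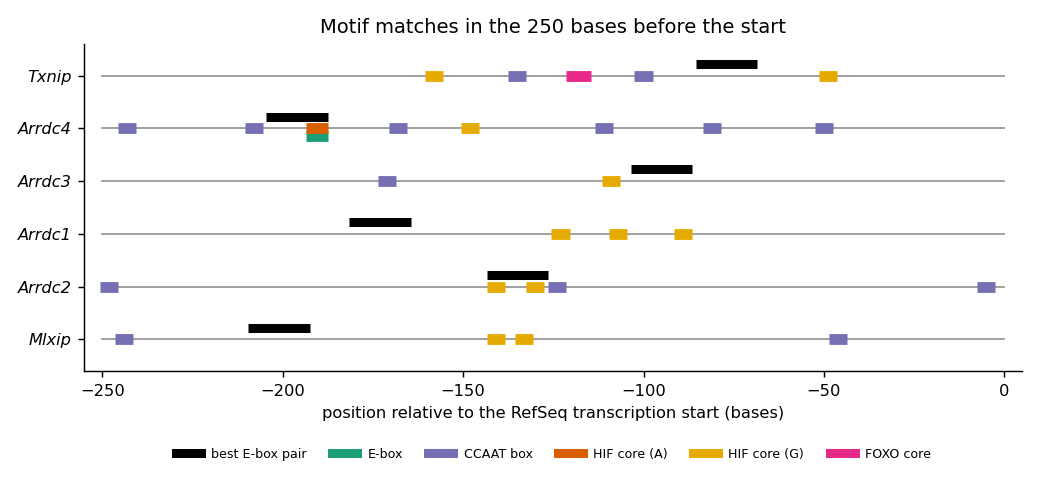
Motif matches in the 250 bases before the RefSeq start of each gene (x axis, bases from the start; Arrdc3 from its most upstream start). Black bars mark the best match to the paired E-box and coloured bars single motifs on either strand; the Txnip pair lies 85 to 69 bases before the start, and Arrdc4 carries 6 CCAAT boxes.

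Per length, Txnip stood far above the rest of the family in control ventricles. To compare genes, values were divided by the length of the merged exons of each gene in kilobases (kb), from GENCODE M21. In controls Txnip was at 107 ± 10.7 per kb (SD, n = 3), which placed it at percentile 96.2 of all genes. Arrdc3 followed at 21.8 ± 3.29 per kb, then Arrdc4 at 8.86 ± 1.41 per kb, Mlxip at 7.10 ± 0.540 per kb, Arrdc1 at 4.34 ± 0.664 per kb and Arrdc2 at 0.993 ± 0.234 per kb. Ranges of the 3 controls did not overlap between neighbours in this order, with the exception of Arrdc4 and Mlxip, whose ratio lay between 0.977 and 1.57 in single controls. The level per kb of Txnip was 108 times that of Arrdc2.

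In knockouts 1 and 2 the order of the per-kb levels differed at Arrdc4. Arrdc4 was at 4.36 and 4.71 per kb there, below Mlxip at 6.29 and 6.54 per kb and beside Arrdc1 at 4.85 and 4.63 per kb. Txnip held 73.9% and 69.1% of the summed per-kb level of the 5 arrestin genes in knockouts 1 and 2, against 75.9%, 72.5% and 76.2% in controls 1 to 3. The share of Arrdc4 was 3.83% and 4.43% in those knockouts, against 5.78%, 6.14% and 6.59% in the controls, with 6.86% for the library labelled knockout 3.

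**Figure D2:**
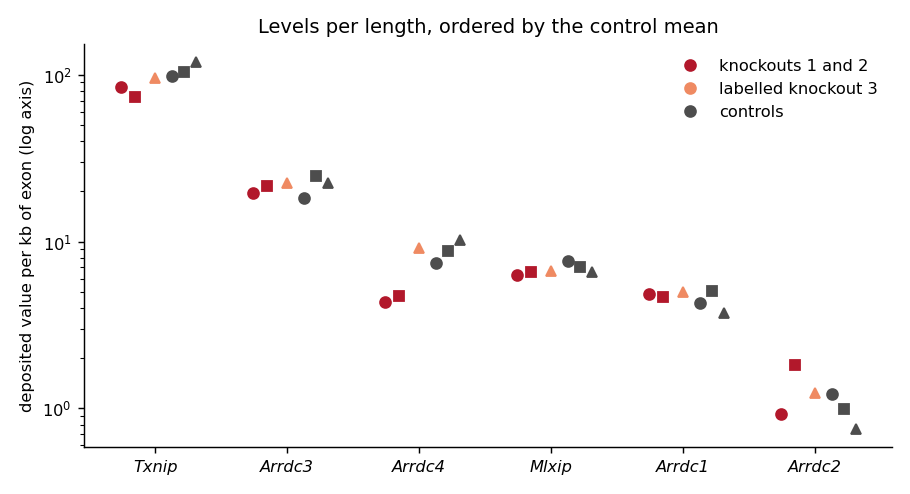
Deposited value per kb of merged exon (y axis, log scale) for each gene in each library, ordered by the control mean, with circles, squares and triangles for replicates 1, 2 and 3. Txnip lies highest at 107 per kb in controls, and Arrdc4 is the gene whose knockout points drop to the level of Arrdc1.

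The glucose sensor itself differed little. Mlxip (ENSMUSG00000038342, chromosome 5, 123394798 to 123457932 on GRCm38) had values of 50.8 and 52.8 in knockouts 1 and 2, against 61.8, 57.1 and 53.1 in controls 1 to 3, with 54.1 for the library labelled knockout 3. Both knockouts lay just below the lowest control, and the log2 difference on log2(value + 1) was -0.14 ± 0.09 (SE of the fit). Mlx, the partner that MondoA needs to bind DNA, had values of 23.7 and 21.8 in knockouts 1 and 2, and 22.2, 21.1 and 21.4 in the controls. Mlx is no member of the set and could be tested, with a log2 difference of 0.07 ± 0.10 (limma adjusted p = 0.77). The ratio of the value of Mlxip to that of Mlx was 2.15 and 2.42 in the knockouts, against 2.79, 2.71 and 2.48 in the controls. Mlxipl, which encodes the related sensor ChREBP, was not analysed here.

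Arrdc4 had the largest difference of the 6 genes. Arrdc4 (ENSMUSG00000042659, chromosome 7, 68736995 to 68749241), an arrestin that, like Txnip, limits glucose uptake, had values of 17.6 and 19.0 in knockouts 1 and 2, while the library labelled knockout 3 had 37.0. Its values in controls 1 to 3 were 30.2, 35.7 and 41.5. Both knockouts lay far below every control, and the library labelled knockout 3 lay inside the control range. The knockout mean was 51.2% of the control mean, and the log2 difference was -0.92 ± 0.14 (SE). These values rest on 218 and 217 reads in the knockouts, against 272, 425 and 396 reads in the controls. Within litter 1 the log2 difference was -0.74, and within litter 2 it was -0.87.

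Txnip was lower by a smaller step. Txnip (ENSMUSG00000038393, chromosome 3, 96557957 to 96561883), the inhibitor of thioredoxin, had values of 238 and 208 in knockouts 1 and 2, while the library labelled knockout 3 had 269.95. In controls 1 to 3 it had values of 277, 295 and 336. Both knockouts lay below every control, and the library labelled knockout 3 lay between the groups, below the lowest control. The knockout mean was 73.6% of the control mean and the log2 difference was -0.44 ± 0.10 (SE), with -0.22 within litter 1 and -0.50 within litter 2. The ratio of the value of Txnip to that of Arrdc4 was 13.5 and 10.9 in knockouts 1 and 2, against 9.19, 8.27 and 8.09 in the controls, with 7.30 for the library labelled knockout 3, and both knockouts lay above every control.

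The other alpha-arrestins had values that overlapped between the groups. Arrdc3 (ENSMUSG00000074794, chromosome 13, 80883384 to 80896042), which takes part in the trafficking of beta-adrenergic receptors, had values of 81.5 and 89.7 in knockouts 1 and 2, against 75.6, 103 and 92.8 in the controls, with 93.7 for the library labelled knockout 3. Its log2 difference was -0.07 ± 0.13 (SE), with 0.11 in litter 1 and -0.19 in litter 2. Arrdc1 (ENSMUSG00000026972, chromosome 2, 24925352 to 24935252), which drives the budding of small vesicles from the plasma membrane, had values of 8.08 and 7.71 in knockouts 1 and 2, against 7.10, 8.39 and 6.19 in the controls, with 8.33 for the library labelled knockout 3. Its log2 difference was 0.12 ± 0.17 (SE), and it too had opposite signs in litters 1 and 2 (0.17 and -0.11).

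Arrdc2 (ENSMUSG00000002910, chromosome 8, 70835129 to 70839720) was the lowest member and the least precise. It had 27 and 49 reads in knockouts 1 and 2, and 26, 28 and 17 reads in controls 1 to 3, which gave values of 2.18 and 4.29 against 2.88, 2.35 and 1.78. The library labelled knockout 3 had 32 reads and a value of 2.93. The log2 difference was 0.31 ± 0.28 (SE), -0.29 in litter 1 and 0.66 in litter 2. Between controls its coefficient of variation was 23.5%, where counting error alone gives 20.6%. For Arrdc4 the same figures were 15.9% and 5.24%, and for Arrdc3 15.1% and 3.28%.

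**Figure D3:**
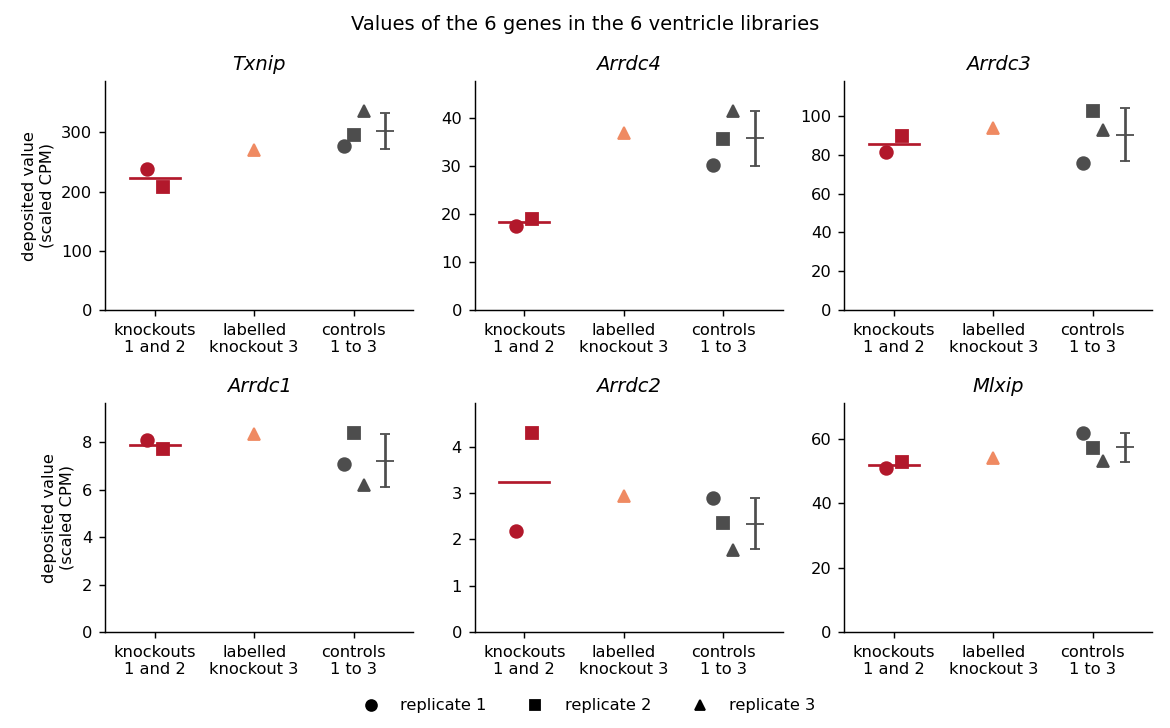
Deposited values (y axis, scaled CPM, from 0) of the 6 genes in knockouts 1 and 2 with their mean as a line, in the library labelled knockout 3, and in the 3 controls with their mean ± SD at the side. Arrdc4 lies at 17.6 and 19.0 in the knockouts and at 30.2 or more in all other libraries, while Arrdc3, Arrdc1 and Arrdc2 overlap.

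Of the 6 genes, 4 had a log2 difference below 0 and 2 above it, with a median of -0.10 beside -0.01 for all genes. Txnip, Arrdc4 and Mlxip lay below all controls in both knockouts, as did 17.0% of all genes, and 0 members lay above all controls, as did 18.1% of all genes. By limma with an adjusted p under 0.05 over all genes, 1 of the 6 was called lower, Arrdc4, where 1.24% of all genes were, and 0 were called higher, where 3.01% were. When litters 1 and 2 alone were fitted as blocks, Arrdc4 and Txnip were called lower, 2 of 6, where 3.21% of all genes were, and 0 were called higher, where 4.92% were. That fit leaves 1 residual degree of freedom and shares its libraries with the first. DESeq2 on the 5 libraries also called Txnip lower, and edgeR did not. The limma call of Arrdc4 was lost without knockout 1, without knockout 2 and without control 2. Nothing is read from these calls or from their loss, because the same contrast chose the set. The difference had the same sign in litters 1 and 2 for 3 members, Txnip, Arrdc4 and Mlxip.

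**Figure D4:**
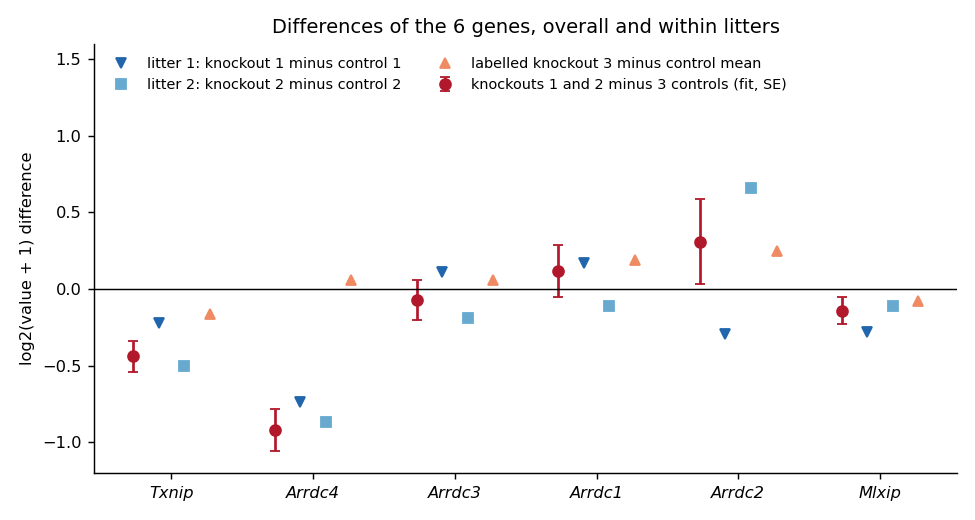
Differences on the log2(value + 1) scale (y axis) for each gene: the fit of knockouts 1 and 2 against the 3 controls with its SE, the single pairs of litters 1 and 2, and the library labelled knockout 3 against the control mean. Arrdc4 lies at -0.74 and -0.87 in the litters and at 0.06 in the library labelled knockout 3.

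Among 6883 other genes with a symbol and a mean above the median, those most like Arrdc4 over the 6 libraries, by Pearson's r of log2(value + 1), were mt-Nd6, Mapk6, Pfkfb2, mt-Nd4 and Clip4, with r between 0.991 and 0.996. Both mt-Nd6 and mt-Nd4 encode respiratory complex I subunits on the mitochondrial genome, and Pfkfb2 encodes a regulator of phosphofructokinase. The value of mt-Nd6 was 813 and 844 in knockouts 1 and 2, against 1181, 1296 and 1390 in controls 1 to 3, with 1363 for the library labelled knockout 3. The value of Pfkfb2 was 30.1 and 30.6 in knockouts 1 and 2, against 37.6, 38.7 and 41.5 in the controls. Those most like Txnip were Zfc3h1, Adgrl2, Pds5b, Smarca1 and Atpif1, with r between 0.979 and 0.991. Between Arrdc4 and Txnip r was 0.89. With Arrdc4, r was 0.46 for Arrdc3, 0.41 for Mlxip, -0.33 for Arrdc1 and -0.46 for Arrdc2. These values describe 6 libraries, of which knockouts 1 and 2 stand apart, so a gene that differs in these 2 alone scores high.

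Other genes of the pathway went by 11 lists of 115 genes, of which 103 were measured and tested in the same fit. In knockouts 1 and 2, 15 of the 103 rose and 1 fell, 14.6% and 0.971%, beside 3.01% and 1.24% of all genes. The lists were chosen with earlier results of these data known and hold known HIF targets. The higher share is therefore no finding about the pathway. The median log2 difference of the 103 was 0.02, beside -0.01 for all genes. Between littermates 19 rose and 6 fell. Of the 16 genes, 6 were called whichever of the 5 libraries was left out, namely Hk2, Pfkfb3, Bhlhe40, Slc2a1, Slc2a3 and Prkab2, and edgeR and DESeq2 each called all 16. Without knockout 1 the calls of Mxi1, Me1, Prdx4, Prdx5, Gpi1, Hecw2, Fbxo32, Sgk1 and Errfi1 were lost, and without knockout 2 those of Mxi1, Hecw2, Fbxo32, Ddit4 and Errfi1. Without control 2 those of Me1, Prdx4, Prdx5, Gpi1, Hecw2, Fbxo32 and Ddit4 were lost, without control 3 those of Mxi1, Me1, Prdx5, Gpi1 and Fbxo32, and without control 1 that of Hecw2.

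Genes that take up and phosphorylate glucose, upstream of the sensor, were higher in part. Of 11 cargo receptors and transporters 2 rose and 0 fell by limma, while DESeq2 called 2 higher and 1 lower, Insr. Slc2a1, the main glucose transporter that Txnip removes from the surface, had values of 655 and 546 in knockouts 1 and 2, against 311, 281 and 282 in the controls (log2 difference 1.04 ± 0.10, limma adjusted p = 0.0012). Slc2a3, a high-affinity glucose transporter, was at 439 and 265 in the knockouts, against 34.4, 44.1 and 51.5 in the controls (2.97 ± 0.22, limma adjusted p = 0.00046). The insulin-responsive transporter Slc2a4 was at 28.9 and 21.3 in the knockouts, against 37.8, 30.6 and 30.0 in the controls, and the insulin receptor Insr at 132 and 115.5, against 177, 152 and 154. These did not pass (limma adjusted p = 0.26 and 0.078) but were called lower between littermates (0.034 and 0.0089). Of 3 genes that make and convert glucose 6-phosphate, Hk2 rose (238 and 235 in the knockouts, against 107, 96.2 and 77.2 in the controls), as did Gpi1 (log2 0.55 ± 0.08). Hk1, the other hexokinase measured, was at 402 and 414 in the knockouts, against 426, 380 and 347 in the controls.

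Other targets of MondoA and ChREBP differed in both directions, with 10 log2 differences above 0 and 7 below it. Of 17 measured members, 4 rose and 0 fell by limma, with a median log2 difference of 0.11, while DESeq2 called 4 higher and 1 lower, Acacb. Besides Hk2 they were Pfkfb3, which makes an activator of glycolysis (68.3 and 69.8 in the knockouts, against 34.1, 31.6 and 32.9 in the controls), the repressor Bhlhe40 (log2 1.52 ± 0.09) and the malic enzyme Me1 (0.81 ± 0.14). Hk2, Pfkfb3 and Bhlhe40 are also known as HIF targets. Acacb, an acetyl-CoA carboxylase, was at 65.6 and 62.1 in the knockouts, against 111, 84.2 and 86.7 in the controls, and did not pass (limma adjusted p = 0.054), while between littermates it was called lower (0.0025). The pentose phosphate enzyme Tkt had a log2 difference of 0.39 ± 0.12 and did not pass (limma adjusted p = 0.13; littermates, 0.019, higher). Acaca and Fasn had log2 differences of -0.32 ± 0.11 and -0.28 ± 0.11 and did not pass (limma adjusted p = 0.20 and 0.24). Between littermates Acaca was called lower (0.035) and Fasn was not (0.071). In all, littermates gave 5 higher and 2 lower in this list, the lower ones being Acacb and Acaca.

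In the network of MYC, MAX and MLX, to which MondoA belongs, 1 of 10 rose and 0 fell. It was Mxi1, a MAX partner that opposes MYC, at 68.1 and 67.3 in the knockouts, against 40.7, 50.3 and 45.3 in the controls (log2 0.57 ± 0.10, limma adjusted p = 0.022). Myc had a log2 difference of 0.53 ± 0.23 (limma adjusted p = 0.29; littermates, 0.023) and Mycn one of 0.22 ± 0.11 (limma adjusted p = 0.36).

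Among genes for proteins that work with Txnip and the arrestins, single members differed in RNA. Of 11 thioredoxins, reductases and peroxiredoxins 2 rose and 0 fell, namely the peroxiredoxins Prdx4 (172 and 141 in the knockouts, against 104, 94.6 and 96.6 in the controls) and Prdx5 (log2 0.48 ± 0.10). The reductases Txnrd3 and Txnrd1 had log2 differences of -0.28 ± 0.14 and -0.14 ± 0.08 and did not pass. Of 10 ligases and adaptors of the NEDD4 family 1 rose, Hecw2, at 49.5 and 50.2 in the knockouts, against 31.8, 31.5 and 36.8 in the controls (limma adjusted p = 0.02). The ligases Wwp1 and Nedd4l had log2 differences of -0.22 ± 0.09 and -0.16 ± 0.08 and did not pass. Of 8 genes of the ESCRT machinery, which Arrdc1 recruits to make vesicles, 0 passed by limma, edgeR or DESeq2, 1 had an unadjusted p under 0.05 by each, and the smallest p belonged to Vps4a (log2 -0.27 ± 0.09, adjusted p = 0.18) and Chmp4b. Of 4 other arrestins 0 passed by limma (2 at an unadjusted p under 0.05), while edgeR called Arr3 lower and DESeq2 called Arrb1 higher. They were Arr3 (0.323 and 0.351 in the knockouts, against 1.78, 1.26 and 1.47 in the controls, adjusted p = 0.09) and the beta-arrestin Arrb1 (log2 0.37 ± 0.10, adjusted p = 0.10; littermates, 0.03). Every gene in the table reached a value of 1 in at least 3 libraries, and Arr3 did so in the 3 controls alone. It is thus in the table through the group where it is high. Its knockout values lie near those of 3 reads (0.242 and 0.263), so nothing is read from its call.

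Txnip is also induced by FoxO factors and, in several tissues, by glucocorticoids. Lists of genes that respond to each were followed. They also hold the factors Foxo1, Foxo3 and Foxo4 and the glucocorticoid receptor gene Nr3c1. A difference between these lists was not tested. Of 12 genes of the FoxO list 1 fell and 0 rose by limma, and 3 were lower by DESeq2. Of the 12, 11 had a log2 difference below 0, and the median was -0.29, beside -0.01 for all genes. The gene above 0 was the factor Foxo3 (0.29 ± 0.08, limma adjusted p = 0.10). The member that fell was Fbxo32, a muscle ubiquitin ligase, at 36.0 and 44.6 in the knockouts and 68.2 in the library labelled knockout 3, against 56.2, 75.7 and 86.7 in the controls (log2 -0.82 ± 0.18, limma adjusted p = 0.046). Trim63, another ubiquitin ligase of muscle, had a log2 difference of -0.35 ± 0.08 (limma adjusted p = 0.064; littermates, 0.038). Between littermates 3 of the 12 fell, Fbxo32, Trim63 and Insr, which are also those that DESeq2 called. Of 11 genes of the glucocorticoid list 3 rose and 0 fell, with a median of 0.48. These were the kinase Sgk1 (log2 0.67 ± 0.10), the mTOR inhibitor Ddit4 (0.87 ± 0.13), which HIF also induces, and the feedback inhibitor Errfi1 (0.74 ± 0.11). Dusp1 and Klf9 had log2 differences of 0.48 ± 0.14 and 0.66 ± 0.21 and did not pass (limma adjusted p = 0.12 and 0.14). Nor did Cebpd (0.54 ± 0.24, limma adjusted p = 0.30). The rest of the list, Nr3c1, Fkbp5, Tsc22d3, Per1 and Zbtb16, lay between -0.15 and 0.17 and did not pass. Between littermates 4 of the 11 rose, with Dusp1 among them (0.049).

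AMP-activated kinase (AMPK) marks Txnip for degradation. Of 8 genes, the subunits of AMPK and Stk11, 1 rose. It was the beta subunit Prkab2, at 139.7 and 139 in the knockouts, against 89.2, 85.6 and 87.1 in the controls (limma adjusted p = 0.0014). Prkag2 and Prkag3 had log2 differences of -0.24 ± 0.12 and 0.29 ± 0.16 and did not pass.

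**Figure D5:**
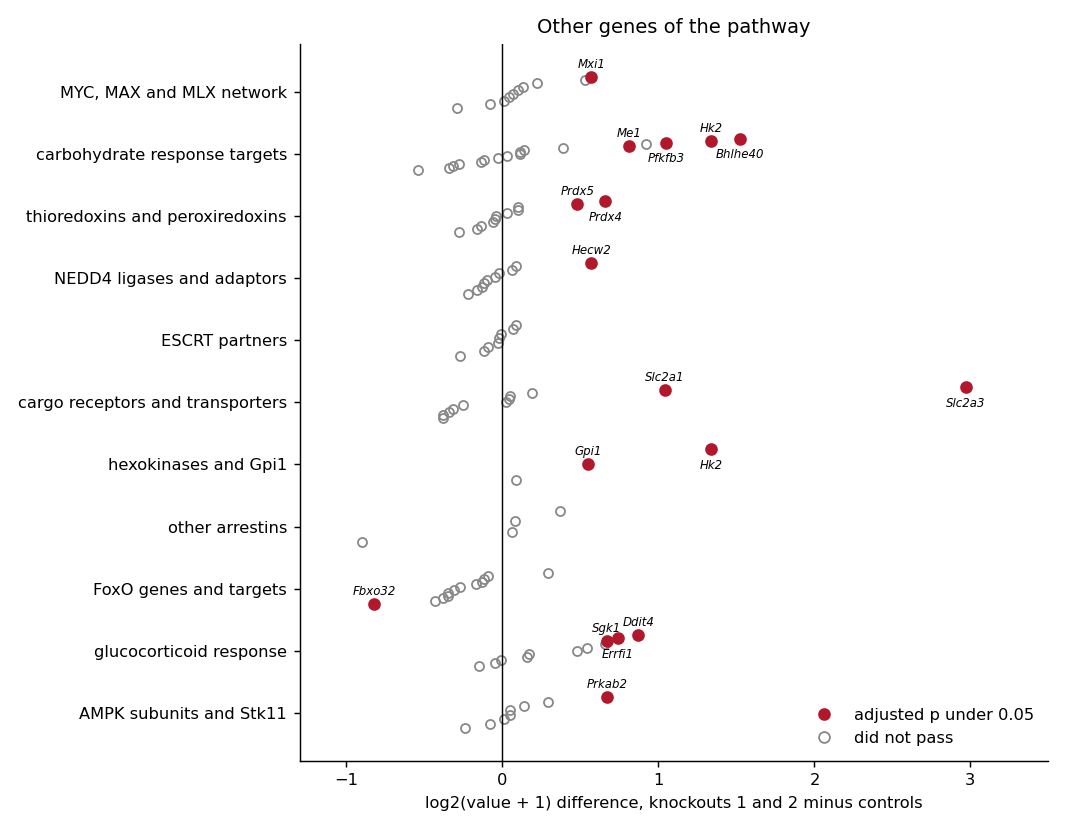
Log2 differences (x axis, knockouts 1 and 2 minus controls) of 103 measured pathway genes by list, ordered by value within a list; filled points are genes with a limma adjusted p under 0.05. The 1 filled point below 0 is Fbxo32, and the highest is Slc2a3 at 2.97.

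Markers of other cell types moved with the group in part. The 6 epicardial markers summed to 457 and 419 in knockouts 1 and 2, against 256 to 342 in the controls, with 298 for the library labelled knockout 3, and 2 of 6 rose, Wt1 and Upk1b. Between littermates 5 of the 6 rose, with Upk3b, Tcf21 and Tbx18 besides. Endothelial and endocardial markers summed to 1618 and 1625 in the knockouts, against 1409 to 1500 in the controls, and 1 of 8 rose, Emcn. The 3 atrial markers measured summed to 3805 and 3265 in the knockouts, against 2717 to 2910 in the controls, and 1 of 3 rose, Myl7. Nr2f2 and Myl4 had log2 differences of 0.09 ± 0.13 and 0.12 ± 0.12 and did not pass. The difference of the atrial sum thus rests mainly on Myl7. In the cardiomyocyte sum, Myh7 alone had values of 12170 and 11345 in knockouts 1 and 2. Of the 8 cardiomyocyte markers 5 had a log2 difference below 0 and 3 above it, and 0 passed. Their median was -0.16, beside -0.01 for all genes. The 7 erythroid markers (sums of 6438 and 14493 in the knockouts, against 5917 to 13311 in the controls), the 5 mesenchymal markers (1697 and 1068, against 863 to 1367) and the 5 macrophage markers (19.3 and 21.0, against 16.3 to 36.7) held 0 genes that passed by limma, and between littermates 1 of them rose, the mesenchymal marker Pdgfrb. The library labelled knockout 3 lay below every control in the endothelial, atrial and mesenchymal sums (1362, 2544 and 699). Its erythroid and macrophage sums (10536 and 22.8) lay inside the control range. What part these marker shifts have in the values of Arrdc4, Txnip and the pathway genes was not tested.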

How the data were processed

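Per the submitters' processing notes, CASAVA 1.8.2, cutadapt 1.3 and RSEM 1.2.3 were used with GRCm38. How genes were annotated, filtered and scaled is not given in the sources used here. Per the labels' protocols, 500 ng of total RNA per ventricle gave single reads of 75 bp. The authors deposited a normalized signal for 13843 genes. In each column 100% of values were whole multiples of 1 step (tolerance 0.01 reads), so whole reads were recovered; the steps equalled the effective library sizes of edgeR's TMM at a ratio of 1. Every gene reached a value of 1 in at least 3 libraries. Symbols, coordinates and exon lengths came from GENCODE M21 (GRCm38), which named 13675 genes.

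The test was limma 3.58.1 with trend (R 4.3.3) on log2(value + 1), knockouts 1 and 2 against 3 controls, with no covariate and Benjamini-Hochberg adjustment over all genes. Because the embryos are few, p-values rest on a variance moderated across genes. Alternatives were a litter block, leaving out libraries, other pseudocounts, filters and scalings, and, on the recovered reads, edgeR 4.0.16 (407 genes higher, 163 lower) and DESeq2 1.42.0. The labels pair libraries by litter; over genes, the correlation of deviations from their group's mean was 0.20 in litter 1, 0.28 in litter 2, and 0.01 for the libraries numbered 3. Reads shared with close copies or overlapping genes are uncertain, since the libraries did not mark strand.

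The members, lists and motifs were chosen with earlier results of these data known. Named genes were the members, Vhl, Nkx2-5, all called genes of each list and up to 2 more with the smallest p, and the 5 genes most like Arrdc4 and Txnip. Mlx, as the partner of MondoA, was added after its values were seen. So were Acaca, Fasn and the rest of the glucocorticoid list.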

Additional observations from a re-analysis of the deposited data

Results flagged for a closer look

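In the library labelled knockout 3, which is left out of the main comparison, Arrdc2 had a value of 2.93, just above the highest control (2.88). It rests on 32 reads there and 26 in that control, a difference within counting error.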

How the results depend on the processing

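Txnip, Arrdc4 and Mlxip had log2 differences below 0, and Arrdc1 above 0, in all 15 settings run; Arrdc2 and Arrdc3 were above or below 0 by setting. With all 6 libraries as labelled, the difference of Arrdc4 was -0.59 by limma and -0.55 by both edgeR and DESeq2 (these 2 tools with all 6 libraries were added after seeing the data). That of Arrdc2 was -0.06 to 0.68 with single libraries left out, and a filter on a mean of at least 5 removed it. Leaving out 1 library, ranges were -0.54 to -0.34 for Txnip, -1.03 to -0.81 for Arrdc4, -0.19 to 0.03 for Arrdc3, 0.03 to 0.22 for Arrdc1 and -0.19 to -0.09 for Mlxip.

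Over all genes, 416 were higher and 172 lower. The replicate block of litters 1 and 2 gave 681 and 444, and 585 of the 588 genes were called in both fits in the same direction. Leaving out 1 library gave 146 to 297 higher and 44 to 90 lower, the fewest without knockout 1; with 1 knockout left, its spread is assumed to be that of the controls. DESeq2 called 278 lower. With all 6 libraries limma called 0 and 0 (859 at an unadjusted p under 0.05), edgeR 0 and 0 (907), and DESeq2 7 and 4. Of the pathway genes, 15 were higher and 1 lower. With all 6 libraries limma, edgeR and DESeq2 each called 0 and 0 (17, 16 and 17 at an unadjusted p under 0.05). Lower calls were 6 under the replicate block, 2 with the filter, 2 by edgeR and 4 by DESeq2. Leaving out 1 library gave 7 to 14 higher and 0 to 1 lower.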
